A study of Mus musculus with 16 samples.

Results

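Myoepithelial cells form the outer, contractile layer of the mammary epithelium, and alveolar progenitors are luminal cells of the inner layer that lack hormone receptors. This comparison set the 4 arrays of sorted myoepithelial cells against the 4 arrays of sorted alveolar progenitors, 8 of the 16 arrays of the study, and took the difference within each mouse. Genes high in both populations and low in non-clonogenic luminal cells, another population from the same mice, are described after it. RNA levels were measured on Affymetrix arrays in freshly sorted mammary cells of 4 female mice aged 10 weeks and 2 days, of the mixed strain C57BL/6J 129 and the line DMI. The 2 knockout mice were labelled Sox2-Cre +/+ ; Cpeb2 -/- and the 2 wild-type mice Sox2-Cre +/+ ; Cpeb2 +/+. All 4 had the same Cre label, and no group with another Cre label was analysed here. Whether +/+ marks the Cre transgene or its absence was not settled here. Each of 2 parent pairs gave 1 mouse of each genotype. As background, Sox2-Cre acts in the early embryo, before the mammary lineages separate. By the labels, myoepithelial cells were sorted as Epcam low and CD49f high, and luminal cells as Epcam high and CD49f low. Luminal cells were then split into alveolar progenitors (Sca1 negative, CD49b positive), ductal progenitors (positive for both) and non-clonogenic luminal cells, which were Sca1 positive and negative for CD49b.

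In the mammary gland, myoepithelial cells carry smooth muscle actin and myosin around the ducts and alveoli, contract in response to oxytocin to eject milk, and lay down the basement membrane. Their identity depends on the transcription factor p63, encoded by Trp63. Alveolar progenitors divide in response to paracrine signals and give rise to the milk-secreting cells, a path that requires the ETS factor Elf5 and prolactin signalling through Stat5. Basal cells and hormone receptor-negative luminal cells both lack the estrogen and progesterone receptors, and both have been studied as starting points of basal-like breast tumours.

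The deposited values are log2 expression levels per probe set, from 3.40 to 13.60, with array medians between 6.35 and 6.40. Arrays of the same genotype and population correlated across probe sets at r = 0.975 to 0.991, and precision was limited by the number of arrays. The lower quartile of an array was 5.08 to 5.18, and a difference from a gene that lies under it is a lower bound in size. Per-array values are given in the order knockout mouse 1, knockout mouse 2, wild-type mouse 1 and wild-type mouse 2, and mice with the same number share parents. The targeted gene, Cpeb2, encodes a regulator of mRNA translation that binds cytoplasmic polyadenylation elements. It was near the lower quartile in both populations, at 5.25, 4.71, 5.41 and 6.03 in myoepithelial cells, against 5.45, 4.81, 5.52 and 5.53 in alveolar progenitors. In each population both knockout arrays lay below both wild-type arrays, with a small margin in alveolar progenitors. In non-clonogenic luminal cells Cpeb2 measured 6.42 and 7.67 in knockout mice, against 8.33 and 8.66 in wild-type mice. Whether the probe set lies in the deleted part of the gene is not stated.

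Myoepithelial cells and alveolar progenitors differed in 6196 of 17097 genes, 36.2% of those tested, by limma with the mouse as a block at an adjusted p under 0.05 over all genes. Of these, 3049 genes (17.8%) were higher in myoepithelial cells and 3147 (18.4%) were lower, and 5822 moved the same way in all 4 mice. By at least 1 log2 unit, a 2-fold difference, 1891 genes (11.1%) were called, of which 906 (5.30%) were higher and 985 (5.76%) lower. A 16-fold difference was passed by 57 higher and 36 lower genes. The median difference over all genes was 0.03 and the median standard error 0.114. Many calls were small, with 1222 higher and 728 lower by under 0.5 log2 units. Among the 5757 genes whose mean over both populations was under 6, where arrays measure least well, 963 were called higher and 284 lower. The count depended on the mice included. Leaving out a mouse leaves 1 mouse of its genotype, and the spread is then estimated from the other genotype alone. Here and below, calls lost or gained without a mouse can reflect this as well as its values. These were not told apart. The replicates are 4 different mice from 2 parent pairs. The p-values rest on how far differences between populations varied between mice of the same genotype, pooled over all 4 populations.

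**Figure D1:**
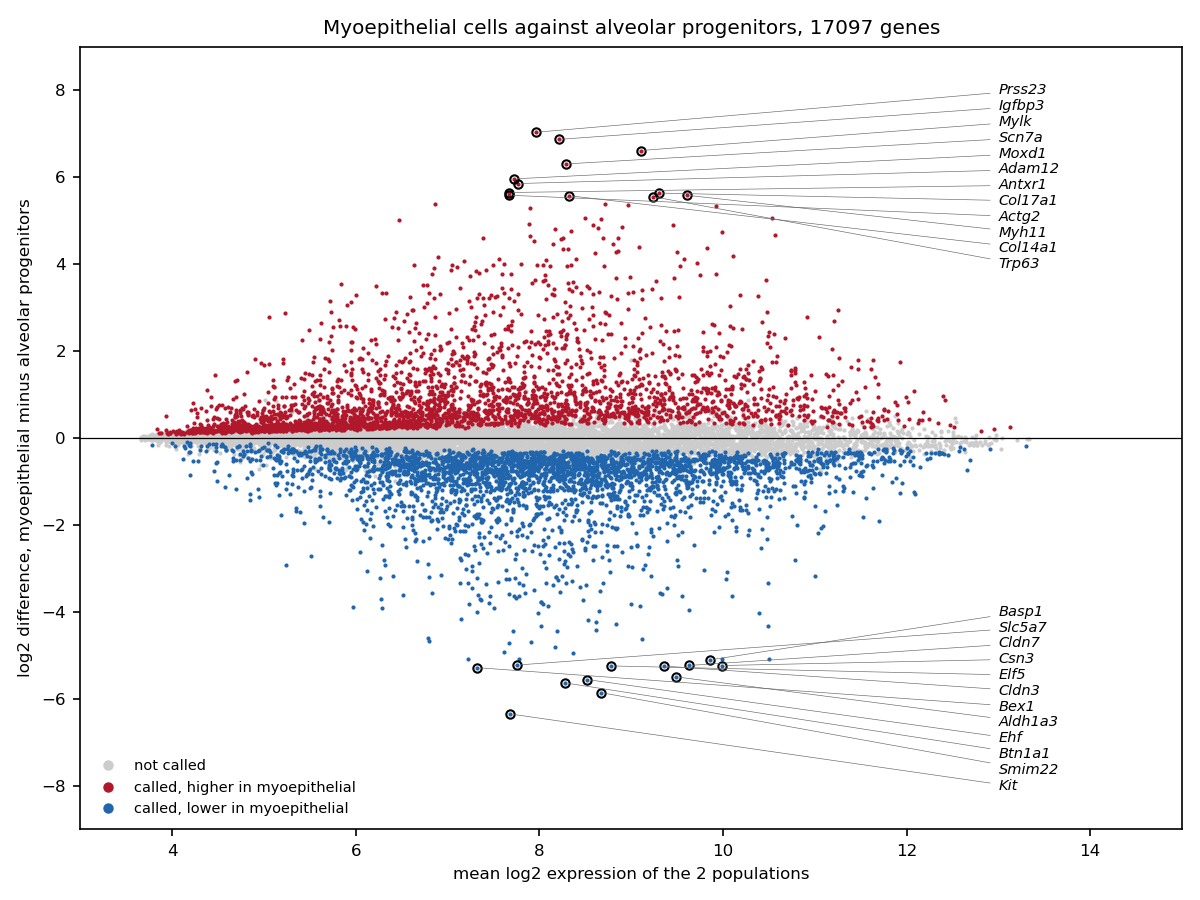
Difference between myoepithelial cells and alveolar progenitors (vertical axis, log2) against the mean level of both populations (horizontal axis, log2 expression) for 17097 genes; each point is a gene, coloured red where called higher and blue where called lower in myoepithelial cells. Circled and labelled are the 12 genes with the largest rise, from 5.56 to 7.04, and the 12 with the largest fall, from -5.10 to -6.35.

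The sort antigens followed the gates. Epcam measured 11.50, 11.49, 11.06 and 11.17 in myoepithelial cells, against 12.64, 12.62, 12.54 and 12.45 in alveolar progenitors. Itga6, which encodes CD49f, measured 11.56, 11.56, 11.84 and 11.15 in myoepithelial cells, against 10.37, 10.03, 10.39 and 10.19 in alveolar progenitors. Because the cells were sorted on these proteins, neither difference is a finding. Itga2, which encodes the luminal gate's CD49b, did not differ by the test between the populations, at -0.20 on the log2 scale (95% interval -0.55 to 0.15, adjusted p = 0.35). Ly6a, which encodes Sca1, was not analysed here. All 6 measured myoepithelial markers (Krt5, Krt14, Acta2, Myh11, Trp63 and Oxtr) were higher in myoepithelial cells. All 6 alveolar markers (Elf5, Kit, Csn3, Ltf, Aldh1a3 and Cd14) were lower there, and the 4 measured hormone-sensing markers (Esr1, Pgr, Foxa1 and Cited1) lay below every non-clonogenic array in both populations, as did 9.12% of all genes. The markers of the labels were present on their own arrays.

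Signals of other cell types were not the same on both sides. The counts below stand against 17.8% of all genes called higher and 18.4% called lower in myoepithelial cells. Of 12 measured endothelial markers, 9 were called higher in myoepithelial cells and 0 lower. Fewer were called without knockout mouse 1, knockout mouse 2 or wild-type mouse 1. The mean level of these markers per array was 6.29 to 7.05 in myoepithelial cells, against 5.80 to 5.97 in alveolar progenitors. Cdh5, the endothelial cadherin, measured 8.47, 9.30, 7.83 and 7.81 in myoepithelial cells, against 6.50, 6.68, 6.53 and 6.40 in alveolar progenitors. Of 12 fibroblast markers, 6 were higher and 0 lower, with mean levels of 6.45 to 6.79 in myoepithelial cells, against 5.46 to 5.72 in alveolar progenitors. Dcn, a matrix proteoglycan, was 2.84 log2 units higher and Col3a1, a fibrillar collagen, 2.03 higher, while Pdgfra and Col1a2, defining markers of fibroblasts, lay under the lower quartile in all 8 arrays. Pericyte markers were higher in 5 of 6 cases, with mean levels of 6.50 to 6.89 in myoepithelial cells, against 6.49 to 6.57 in alveolar progenitors. Among 5 adipocyte markers Fabp4, a fatty acid carrier, was 1.90 higher and the others were not called (2 of 5 were called without wild-type mouse 1), with mean levels of 6.61 to 7.001 in myoepithelial cells, against 6.15 to 6.50 in alveolar progenitors. Of 18 leukocyte markers, 2 were higher and 1 lower (0 higher with either knockout mouse left out), with mean levels of 5.61 to 5.69 in myoepithelial cells, against 5.65 to 5.72 in alveolar progenitors, and Ptprc, the pan-leukocyte phosphatase CD45, lay under the lower quartile in all 8 arrays. The 3 red cell markers were not called. The part of other cells in the differences below was not tested. In sorted pools measured in bulk, fewer cells of a type and less RNA per cell cannot be told apart.

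The 12 largest rises held genes of several kinds, among them secreted proteins, contractile proteins and collagens. Prss23, a secreted serine protease, measured 11.55, 11.58, 11.13 and 11.67 in myoepithelial cells, against 4.46, 4.34, 4.73 and 4.26 in alveolar progenitors, a 131-fold difference (7.04 log2 units, standard error 0.20, adjusted p = 2.7e-09). Alveolar progenitors were the low population among the 4, since Prss23 averaged 9.18 in ductal progenitors and 9.27 in non-clonogenic luminal cells. Igfbp3, a carrier of insulin-like growth factors, measured 11.70, 11.56, 11.81 and 11.51 in myoepithelial cells, against 4.53, 4.80, 5.18 and 4.57 in alveolar progenitors, which is 6.87 log2 units (standard error 0.12, adjusted p = 1.4e-10). Mylk encodes the kinase that switches on smooth muscle myosin by phosphorylating its light chain. It measured 12.42, 12.32, 12.56 and 12.37 in myoepithelial cells, against 5.65, 5.89, 5.78 and 5.87 in alveolar progenitors, a 98.2-fold difference (6.62 log2 units, standard error 0.11, adjusted p = 1.4e-10). The largest rises were chosen among genes whose arrays do not overlap, so the separation of these 3 genes is part of their selection. Over all genes the arrays of both populations did not overlap in 32.2%, with the myoepithelial arrays above in 17.9% and the alveolar arrays above in 14.3%.

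The other 9 of the 12 largest rises ranged from 5.56 to 6.31 log2 units. Scn7a, an atypical sodium channel, was 6.31 higher and Moxd1, a monooxygenase related to dopamine beta-hydroxylase, 5.97 higher. The metalloprotease Adam12 was 5.86 higher, and Antxr1, a collagen-binding surface receptor, 5.65 higher. Col17a1, the transmembrane collagen of hemidesmosomes, was 5.64 higher and Col14a1, a fibril-associated collagen, 5.58 higher. The muscle genes Actg2 (smooth muscle gamma-actin) and Myh11 (smooth muscle myosin heavy chain), were each 5.59 higher. Trp63 measured 11.80, 12.16, 12.26 and 11.85 in myoepithelial cells, against 6.32, 6.28, 6.67 and 6.57 in alveolar progenitors, a difference of 5.56. In all 12 genes every myoepithelial array also lay above every ductal and non-clonogenic array, as in 12.5% of all genes. In 11 of them, all but Prss23, alveolar and non-clonogenic means lay within 1 log2 unit of each other. For Prss23, Moxd1, Adam12, Antxr1 and Actg2 all 4 alveolar arrays lay under the lower quartile, so that their differences are lower bounds, and for Igfbp3 3 of 4 did.

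**Figure D2:**
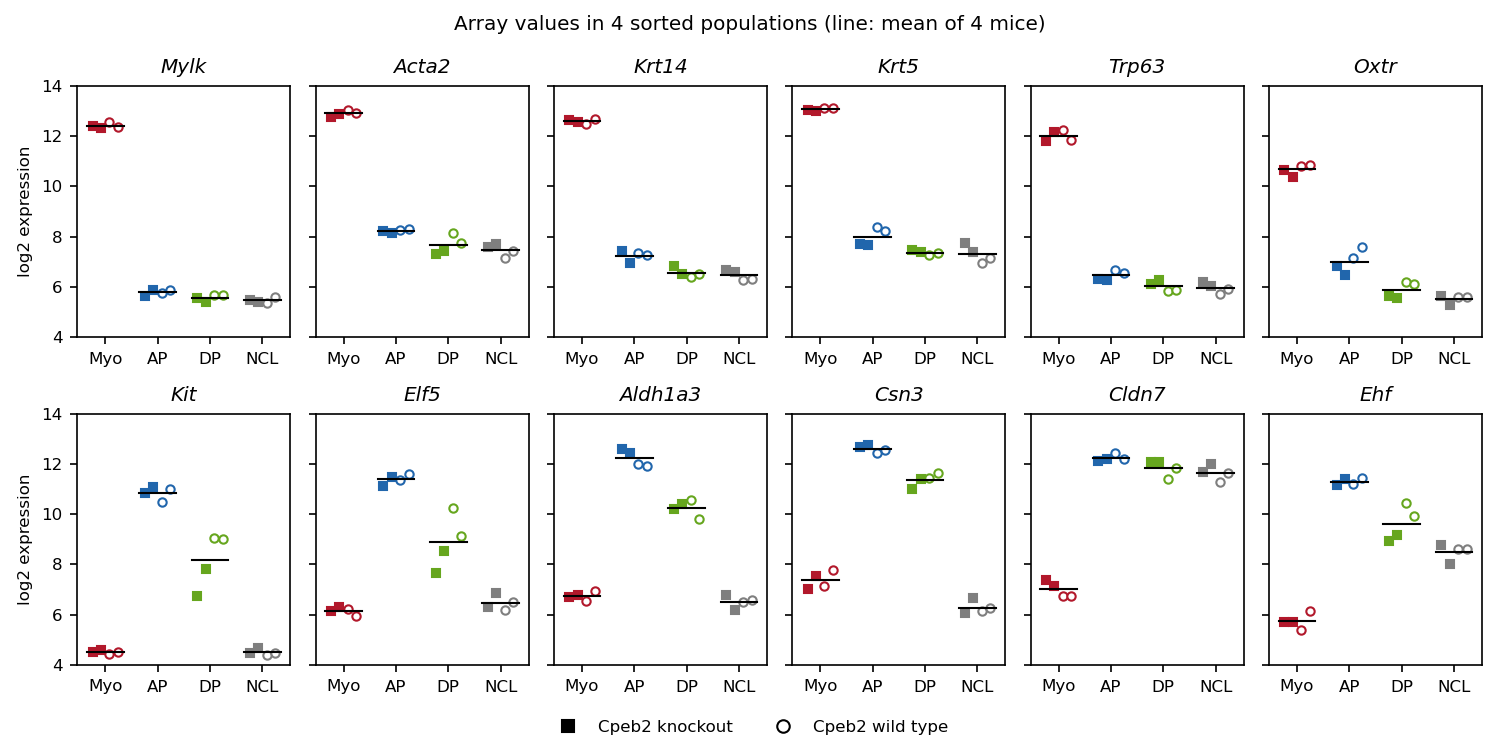
Log2 expression (vertical axis) of 6 genes high in myoepithelial cells (upper row) and 6 genes high in alveolar progenitors (lower row), in myoepithelial cells (Myo), alveolar progenitors (AP), ductal progenitors (DP) and non-clonogenic luminal cells (NCL); filled squares are knockout mice, open circles wild-type mice, lines the means of 4 mice. In the upper row the myoepithelial arrays are the highest, while the alveolar means of Acta2 and Oxtr also lie above the non-clonogenic means. In the lower row Cldn7 is high in all 3 luminal populations, whereas Kit falls off through the ductal progenitors to the non-clonogenic cells.

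Smooth muscle genes rose as a group. Of 17 measured genes of contraction, 15 were called higher in myoepithelial cells and 1 lower, with a median difference of 1.64, against 0.03 over all genes. Acta2, smooth muscle alpha-actin, measured 12.76, 12.88, 13.04 and 12.94 in myoepithelial cells, against 8.23, 8.15, 8.28 and 8.29 in alveolar progenitors (difference 4.67, adjusted p = 1.5e-09). The alveolar level was itself above the lower quartile and 0.76 above that of non-clonogenic luminal cells. Cnn1, calponin, was 4.78 higher, Myl9, the regulatory myosin light chain, 4.75 higher, and Tpm2, beta-tropomyosin, 4.19 higher. In Tpm2 alveolar progenitors of knockout mouse 1 stood apart at 9.56, while the other 3 alveolar arrays measured 7.14 to 7.74. Oxtr, the oxytocin receptor, measured 10.64, 10.37, 10.83 and 10.86 in myoepithelial cells, against 6.82, 6.46, 7.14 and 7.58 in alveolar progenitors (difference 3.68, adjusted p = 2.9e-09).

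Regulators of the muscle programme were measured as well. Myocd, the muscle cofactor myocardin, lay near the lower quartile on both sides and was 0.26 higher, a call that was lost without knockout mouse 1. Its relatives, the actin-regulated cofactors Mrtfa and Mrtfb, were 1.40 higher and 0.84 lower. Srf, the DNA-binding partner of these cofactors, measured 11.22, 11.32, 11.23 and 10.94 in myoepithelial cells, against 11.20, 10.997, 10.34 and 10.11 in alveolar progenitors. Its arrays overlapped, and its difference of 0.52 did not pass the test (95% interval 0.06 to 0.97, adjusted p = 0.076, and 0.0082 when only the 8 arrays compared entered the model). As background, Srf binds the CArG box, a 10-base element of the kind found in muscle promoters. The 32851 mouse promoters of the RefSeq table (GRCm38.p6) were searched on both strands over the 250 bases before the start, and 1.47% held a match. Counted per gene over all of its promoters, which is another unit, 2 of 15 contraction genes in that table did, Myl9 and Srf itself. The stretches around the matches are shown because these genes differed by very unequal amounts, together with that of Egr2, an early growth response factor of the basal list that was 1.98 higher in myoepithelial cells, and capitals mark the CArG boxes, on the + strand at chr2:156775263-156775352 for Myl9, on the - strand at chr17:46556175-46556284 for Srf and on the + strand at chr10:67537454-67537543 for Egr2.
Myl9: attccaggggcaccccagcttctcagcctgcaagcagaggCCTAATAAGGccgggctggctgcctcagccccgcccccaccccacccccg
Srf: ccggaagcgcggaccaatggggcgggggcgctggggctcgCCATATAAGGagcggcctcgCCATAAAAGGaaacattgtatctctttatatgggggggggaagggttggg
Egr2: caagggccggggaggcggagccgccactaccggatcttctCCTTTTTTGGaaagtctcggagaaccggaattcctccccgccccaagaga
The match of Myl9 begins 161 bases before the start, those of Srf 82 and 62 bases before it and that of Egr2 72 bases before it. A match is a description of the letters only. These 3 genes differed by 4.75, 0.52 and 1.98 log2 units in the order shown.

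The keratins of both layers separated the populations, but not equally. Krt5, the basal keratin that pairs with keratin 14, measured 13.05, 13.01, 13.11 and 13.10 in myoepithelial cells, against 7.70, 7.68, 8.39 and 8.24 in alveolar progenitors (difference 5.07, adjusted p = 5.4e-10). Krt14 measured 12.66, 12.55, 12.50 and 12.68 in myoepithelial cells, against 7.42, 6.95, 7.35 and 7.27 in alveolar progenitors (difference 5.35, adjusted p = 3.6e-10). All 5 measured basal keratins were called higher in myoepithelial cells, and 0 lower. Without the mouse block 4 of them were called, and not all were called without knockout mouse 1. Of 6 luminal keratins, 4 were lower and 1 higher. Krt7 was 3.56 lower, Krt19 3.17 lower and Krt18 1.91 lower. Krt8, the partner of keratin 18, measured 11.58, 11.25, 11.40 and 11.49 in myoepithelial cells, against 12.49, 12.48, 12.49 and 12.42 in alveolar progenitors, 1.04 lower on average. Krt23 was the exception, 1.10 higher in myoepithelial cells, a call that was lost without knockout mouse 2 (difference 0.68).

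Among 14 basal and mesenchymal transcription factors 8 were called higher in myoepithelial cells and 0 lower, with 5 of the calls left without knockout mouse 2. The differences lay in a few members. Beside Trp63, Id4, an inhibitor of basic helix-loop-helix factors, measured 10.39, 10.45, 10.43 and 10.55 in myoepithelial cells, against 6.28, 6.48, 6.10 and 6.49 in alveolar progenitors (difference 4.12, adjusted p = 1.5e-09). Snai2, the repressor Slug, measured 8.45, 8.45, 8.08 and 9.16 in myoepithelial cells, against 5.12, 4.97, 4.96 and 5.01 in alveolar progenitors, where all 4 arrays lay under the lower quartile (difference 3.52, adjusted p = 7.6e-08). Prrx1, a homeobox factor of mesenchyme, was 2.78 higher. Snai1, Twist1, Zeb1 and Zeb2, drivers of mesenchymal transition like Snai2, were not called, with differences of 0.43, 0.16, 0.16 and 0.06. Without wild-type mouse 1, Twist1 and Zeb1 were called, at 0.24 and 0.33, and Snai1 was called when only the 8 arrays compared entered the model.

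Genes for the basement membrane and the hemidesmosome were all called higher among those measured, 15 of 15, with a median difference of 2.50. Without the mouse block 14 were called, and calls were also lost with either knockout mouse or wild-type mouse 1 left out. Beside Col17a1, the type IV collagen chain Col4a2 measured 11.55, 11.57, 11.77 and 11.67 in myoepithelial cells, against 7.06, 7.42, 7.31 and 7.66 in alveolar progenitors (difference 4.28, adjusted p = 1.2e-08). Its partner chain Col4a1 was 2.95 higher. Lama3, the alpha chain of laminin-332, measured 11.73, 11.86, 11.98 and 11.73 in myoepithelial cells, against 9.46, 9.08, 8.36 and 7.23 in alveolar progenitors (difference 3.29, adjusted p = 1.6e-06). The alveolar arrays of Lama3 spread over more than 2 log2 units, yet none reached a myoepithelial array. Hspg2, the proteoglycan perlecan, was 2.97 higher. The smallest of the differences described was that of Lamb2, at 0.59, which was not called without knockout mouse 2. As given above, endothelial and fibroblast markers also moved with the myoepithelial arrays, and these cells make type IV collagens and perlecan as well. Their part was not tested.

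Receptors for the matrix went mostly the same way, with 9 of 13 integrins higher and 1 lower in myoepithelial cells. This list holds the sort antigens Itga6, which was called, and Itga2, which was not, and without them 8 of 11 were higher and 1 lower, with a median difference of 1.67. Itga9, which binds tenascin and other ligands, was 3.21 higher, and Itga1, a collagen receptor subunit, 2.50 higher from alveolar arrays under the lower quartile. Itgb4, the laminin receptor subunit of hemidesmosomes, was 1.67 higher. Itgb6 was the exception, at 8.22, 8.12, 7.54 and 7.35 in myoepithelial cells, against 9.99, 10.17, 9.83 and 9.54 in alveolar progenitors (difference -2.07, adjusted p = 1.6e-07). It encodes an epithelial integrin chain that activates latent TGF-beta. Itgb3, known as a surface marker of luminal progenitors in mice, was 2.48 higher in myoepithelial cells than in alveolar progenitors.

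**Figure D3:**
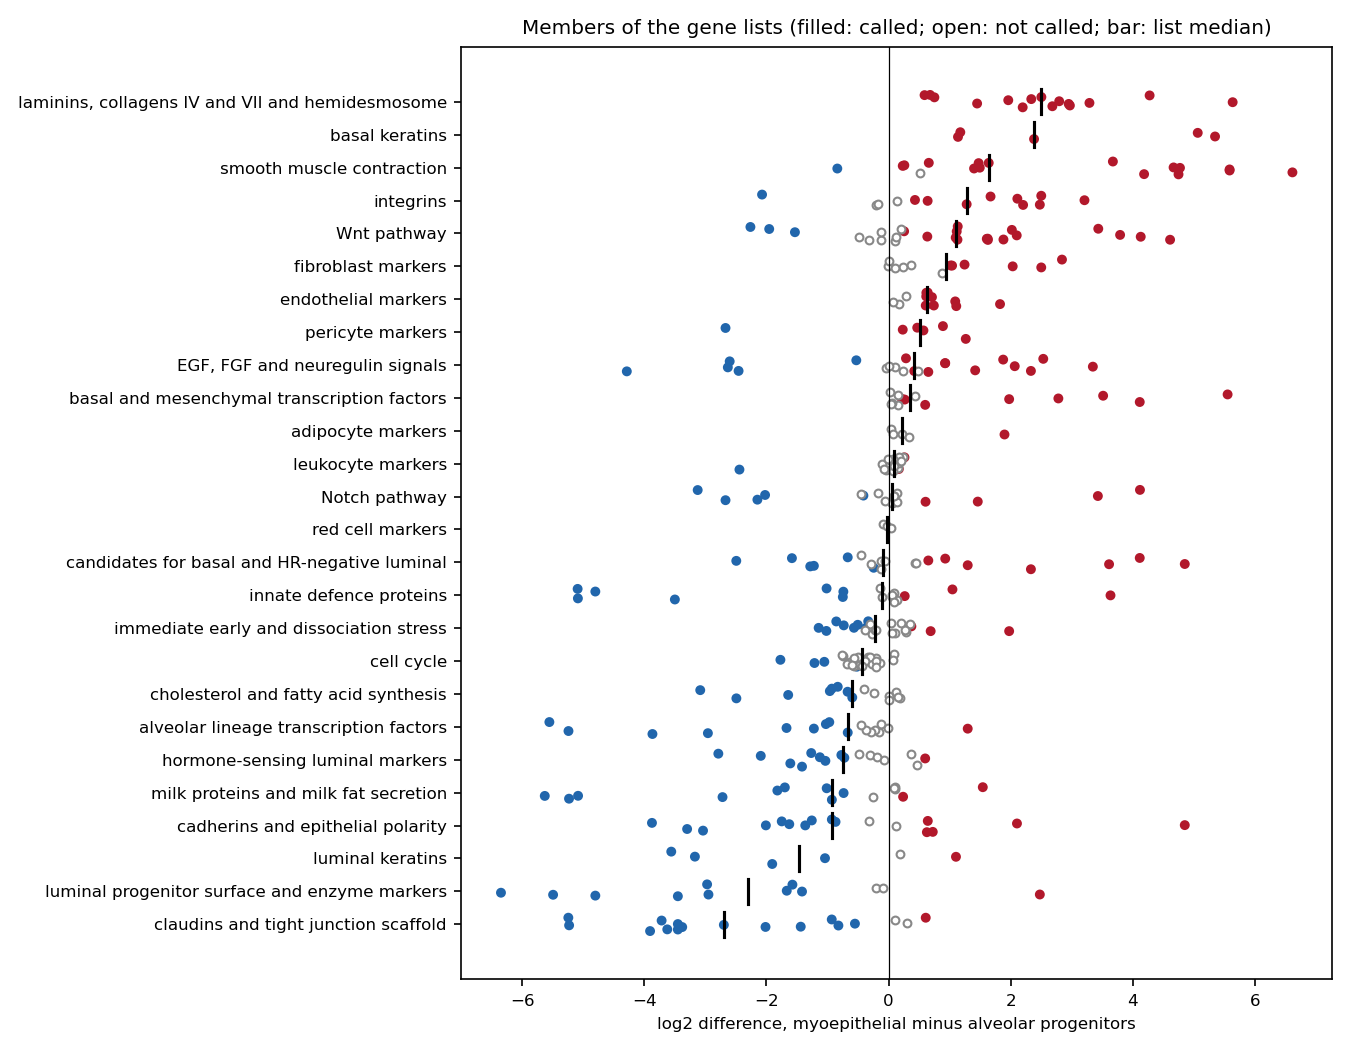
Difference between myoepithelial cells and alveolar progenitors (horizontal axis, log2) for every measured member of 26 gene lists (rows); filled points were called (red higher, blue lower in myoepithelial cells), open points were not, and the black bar is the median of the list. Basement membrane, basal keratin and contraction genes lie to the right, claudins, luminal progenitor markers and luminal keratins to the left, and the Notch, defence and EGF lists hold members on both sides.

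On the alveolar side the 12 largest falls were of 2 kinds. In 7 genes levels were higher in alveolar progenitors than in non-clonogenic luminal cells by at least 1 log2 unit, with the ductal mean in between in all 7. Kit, the receptor for stem cell factor, measured 4.50, 4.58, 4.44 and 4.52 in myoepithelial cells, against 10.83, 11.08, 10.50 and 11.02 in alveolar progenitors, a difference of at least 81.6-fold (-6.35 log2 units, standard error 0.16, adjusted p = 1.2e-09), since the myoepithelial arrays lay under the lower quartile. Non-clonogenic arrays of Kit were as dim, at 4.48, 4.67, 4.41 and 4.47. Btn1a1, butyrophilin of the milk fat globule membrane, was 5.63 lower, and Ehf, an epithelial ETS factor, 5.56 lower. Aldh1a3, a retinaldehyde dehydrogenase, measured 6.70, 6.78, 6.54 and 6.94 in myoepithelial cells, against 12.60, 12.43, 11.99 and 11.93 in alveolar progenitors, 5.50 lower. Elf5 measured 6.15, 6.30, 6.23 and 5.94 in myoepithelial cells, against 11.14, 11.50, 11.37 and 11.61 in alveolar progenitors, 5.24 lower. Csn3, kappa-casein, was also 5.24 lower, and Slc5a7, a choline transporter, 5.22 lower with 3 of 4 myoepithelial arrays under the lower quartile. For 6 of these 7 genes, all but Ehf, myoepithelial and non-clonogenic means lay within 1.2 log2 units of each other.

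The other 5 of the largest falls were shared by all luminal populations, with alveolar and non-clonogenic means within 1 log2 unit. Smim22, a small membrane protein, measured 5.76, 5.72, 5.36 and 6.14 in myoepithelial cells, against 11.77, 11.73, 11.29 and 11.63 in alveolar progenitors, 5.86 lower. Cldn3 and Cldn7, claudins of tight and lateral junctions, were 5.25 and 5.23 lower. Bex1, a small adaptor protein encoded on the X chromosome, was 5.29 lower with 3 of 4 myoepithelial arrays under the lower quartile, and Basp1, a membrane-bound signalling protein, 5.10 lower. Bex1 varied between mice in the luminal populations, from 7.02 to 10.46 in ductal progenitors.

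Most junction genes fell. Of 17 claudins and tight junction scaffold genes, 14 were called lower in myoepithelial cells and 1 higher, with a median difference of -2.70. Ocln, occludin, measured 8.04, 6.26, 6.28 and 5.89 in myoepithelial cells, against 10.33, 10.62, 10.14 and 10.26 in alveolar progenitors (difference -3.72, adjusted p = 1.4e-05), and knockout mouse 1 was the highest of the myoepithelial arrays. Cldn4 was 3.63 lower and Cldn1 3.45 lower. The member that rose, Cldn5 at 0.61 higher, is the claudin of endothelium, and this call was lost without knockout mouse 2. Of 17 genes for cadherins and epithelial polarity, 10 were lower and 5 higher, and 9 were lower without the sort antigen Epcam. P-cadherin and E-cadherin moved in opposite directions. Cdh3 encodes P-cadherin, a marker of basal cells, and measured 11.32, 11.57, 11.26 and 11.14 in myoepithelial cells, against 6.40, 6.58, 6.51 and 6.39 in alveolar progenitors (difference 4.85, adjusted p = 7.8e-10). Cdh1 encodes E-cadherin and measured 9.91, 9.97, 9.85 and 9.58 in myoepithelial cells, against 10.79, 10.84, 10.66 and 10.73 in alveolar progenitors, 0.93 lower. Muc1, the apical mucin, was 3.88 lower, Pard6b, a polarity scaffold, 3.30 lower, and Rab25, a small GTPase of apical recycling, 3.04 lower.

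Transcription factors tied to alveolar and luminal identity split into genes that fell and genes that were level. Of 17, 9 were lower in myoepithelial cells and 1, Tfap2c, higher. Beside Elf5 and Ehf, Grhl1, a grainyhead factor, was 3.87 lower, Elf3, another epithelial ETS factor, 2.96 lower, and Gata3, the luminal GATA factor, 0.97 lower, though not called without knockout mouse 2. Stat5a had a difference of -0.22 that did not pass the test, while Stat5b was 1.03 lower and lost its call with either knockout mouse left out. Sox9 was 1.22 lower. Cebpb, which is required for alveolar development in mice, measured 10.78, 10.49, 9.99 and 10.82 in myoepithelial cells, against 10.71, 10.87, 10.09 and 10.46 in alveolar progenitors. Its arrays overlapped, with an interval of -0.48 to 0.46 for the difference. Of 12 surface and enzyme markers of luminal progenitors, 9 were lower in myoepithelial cells and 1, Itgb3, higher. Cd14, the lipopolysaccharide co-receptor, measured 5.65, 5.88, 5.70 and 5.83 in myoepithelial cells, against 10.42, 10.90, 10.50 and 10.45 in alveolar progenitors (difference -4.80, adjusted p = 1.3e-08).

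Milk genes were unequal. Of 15 measured, 9 were lower in myoepithelial cells and 2 higher, with a median difference of -0.93. Csn3 measured 7.03, 7.55, 7.14 and 7.78 in myoepithelial cells, against 12.69, 12.75, 12.44 and 12.57 in alveolar progenitors. Csn1s1, alpha-S1-casein, measured 4.24, 4.21, 3.999 and 4.15 in myoepithelial cells, all under the lower quartile, against 5.25, 7.02, 7.58 and 7.63 in alveolar progenitors (difference -2.72, adjusted p = 2.8e-05). Csn2, beta-casein, measured 8.01, 7.28, 7.51 and 6.64 in myoepithelial cells, against 7.59, 7.61, 7.82 and 7.41 in alveolar progenitors, a difference of -0.25 that did not pass the test on the brightest of its 3 probe sets. Another, dimmer probe set of Csn2 was called by limma, at -1.68 (adjusted p = 0.0398 over all probe sets). The dimmest differed by -1.08 and did not pass (adjusted p = 0.0529). Wap, whey acidic protein, differed by 0.10 and did not pass the test either. Muc15, a mucin of the milk fat globule, was 5.09 lower, again from myoepithelial arrays under the lower quartile. The exceptions were Glycam1, 1.54 higher with values in myoepithelial cells that spread from 5.17 to 8.09, and Lpo, lactoperoxidase, 0.24 higher. Neither was called without knockout mouse 1, and Lpo was not called without knockout mouse 2 or wild-type mouse 2 either.

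As background, Stat5 binds the palindrome TTCNNNGAA, and casein promoters are its textbook targets. The palindrome was found in 7.02% of the 32851 promoters. Counted per gene over all of its promoters, which is another unit, it was found in 3 of 12 milk genes of the table (Csn1s1, Csn2 and Glycam1). The RefSeq stretches of both caseins are shown because these neighbours on chromosome 5 differed in the arrays on the probe sets used. The palindrome is in capitals, on the + strand at chr5:87666068-87666156 for Csn1s1 and on the - strand at chr5:87699470-87699558 for Csn2 (GRCm38.p6).
Csn1s1: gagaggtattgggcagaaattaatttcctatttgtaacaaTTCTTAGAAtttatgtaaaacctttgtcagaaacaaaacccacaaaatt
Csn2: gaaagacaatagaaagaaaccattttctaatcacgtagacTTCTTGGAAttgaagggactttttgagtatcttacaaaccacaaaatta
The match begins 100 bases before the start of Csn1s1 and 93 bases before that of Csn2. Csn1s1 was 2.72 log2 units lower in myoepithelial cells, and Csn2 did not pass the test on its brightest probe set, at -0.25. The dimmer probe sets of Csn2 differed by -1.68 and -1.08 (adjusted p = 0.0398 and 0.0529 by limma over all probe sets).

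Of 17 defence proteins, 3 were higher and 7 lower in myoepithelial cells, against 17.8% and 18.4% of all genes. Ltf, the iron-binding lactoferrin, measured 7.29, 8.42, 6.93 and 7.12 in myoepithelial cells, against 12.77, 12.89, 12.44 and 12.03 in alveolar progenitors (difference -5.09, adjusted p = 1.2e-08). Wfdc18, a whey acidic protein family member, measured 7.55, 7.57, 7.51 and 9.17 in myoepithelial cells, against 13.12, 12.95, 13.04 and 13.06 in alveolar progenitors, with wild-type mouse 2 apart from the rest on the myoepithelial side. Slpi, a secreted inhibitor of leukocyte proteases, went the other way, at 12.66, 12.42, 12.20 and 11.89 in myoepithelial cells, against 9.08, 9.45, 7.95 and 8.14 in alveolar progenitors (difference 3.64, adjusted p = 1.2e-07). Lcn2, the siderophore-binding lipocalin, differed little between them, at 12.77, 12.78, 12.57 and 12.40 in myoepithelial cells, against 12.89, 12.88, 12.73 and 12.56 in alveolar progenitors (difference -0.14, adjusted p = 0.38). Its non-clonogenic arrays were lower, at 8.07 and 7.87 in knockout mice, against 10.33 and 10.54 in wild-type mice.

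Of 18 Notch pathway genes, 4 were higher and 5 lower in myoepithelial cells, against 17.8% and 18.4% of all genes, and the other 9 were not called, ligands, receptors and targets among them. The ligands Jag1 and Dll1 rose. Jag1 measured 11.56, 11.76, 11.70 and 11.51 in myoepithelial cells, against 7.53, 7.16, 8.02 and 7.34 in alveolar progenitors (difference 4.12, adjusted p = 5.1e-09), and Dll1 measured 10.43, 10.23, 9.61 and 9.20 in myoepithelial cells, against 6.62, 6.44, 6.37 and 6.33 in alveolar progenitors (difference 3.43, adjusted p = 6.8e-09). Among receptors, Notch1 was 2.15 lower and Notch3 2.67 lower, while Notch2 at -0.17 did not pass the test. Notch3 is also a pericyte marker, and was the member of that list that fell. Of the target genes, Hes1, a repressor, was 2.02 lower and Nrarp, a feedback inhibitor, measured 6.43, 6.46, 5.84 and 6.41 in myoepithelial cells, against 9.06, 9.15, 9.66 and 9.78 in alveolar progenitors, 3.13 lower. Hey1, another target, did not follow them and is described with the shared genes.

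Of 26 Wnt pathway genes, 16 were higher in myoepithelial cells and 3 lower, with a median difference of 1.11. The ligand Wnt10a measured 9.63, 10.02, 9.60 and 9.50 in myoepithelial cells, against 5.06, 5.09, 5.06 and 5.10 in alveolar progenitors, where all arrays lay under the lower quartile (difference 4.61, adjusted p = 1.4e-10). Wnt5a, a ligand of the non-canonical branch, was 3.79 higher, whereas its close relative Wnt5b was 2.26 lower. Lgr5, a receptor for R-spondins and a stem cell marker in several epithelia, measured 10.08, 9.22, 10.02 and 9.18 in myoepithelial cells, against 7.07, 5.33, 4.63 and 4.93 in alveolar progenitors (difference 4.13, adjusted p = 6.0e-07). The alveolar array of knockout mouse 1 was the highest of its group for Lgr5, as it was for Tpm2. Fzd7, a frizzled receptor, was 2.10 higher and Dkk3, a secreted member of the Dickkopf family, 3.44 higher. The transcriptional readout Axin2 differed by 0.20 and did not pass the test.

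Among EGF, FGF and neuregulin signals 11 of 21 were higher and 5 lower in myoepithelial cells, against 17.8% and 18.4% of all genes. A ligand and its receptors were on opposite sides. Nrg1, neuregulin 1, measured 7.99, 7.73, 8.26 and 7.84 in myoepithelial cells, against 5.003, 4.43, 4.49 and 4.51 in alveolar progenitors, all under the lower quartile (difference 3.35, adjusted p = 2.8e-09). Its receptors were lower in myoepithelial cells. Erbb3 measured 6.79, 6.54, 6.54 and 6.88 there, against 10.68, 10.99, 11.01 and 11.22 in alveolar progenitors (difference -4.29, adjusted p = 2.9e-09), and Erbb4 was 2.46 lower. The EGF receptor ligands Btc and Hbegf were 2.60 and 2.63 lower, and Tgfa 1.42 higher. Fgfr2, a receptor for fibroblast growth factors, was 2.54 higher, and Etv4, an ETS factor that responds to FGF signals, 2.33 higher.

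The counts of 4 further groups changed with the mice included. Of 29 cell cycle genes, 4 were lower in myoepithelial cells and 0 higher, against 18.4% and 17.8% of all genes, with a median difference of -0.43. The mean level of this list was highest in wild-type mouse 2 in both populations, at 8.83 in myoepithelial cells and 9.34 in alveolar progenitors. Wild-type mouse 1 followed, at 7.38 and 8.13. The 2 knockout mice were lower, with 6.74 and 6.76 in myoepithelial cells and 7.27 and 6.92 in alveolar progenitors. In ductal progenitors and non-clonogenic luminal cells both wild-type mice also lay above both knockout mice. This gap between genotypes was not tested. The 4 lower calls became 13 when wild-type mouse 2 was left out, 11 when wild-type mouse 1 was, and 1 when either knockout mouse was, and 16 when only the 8 arrays compared entered the model with all 4 mice. Of 15 genes of cholesterol and fatty acid synthesis, 8 were lower and 0 higher, with 4 calls without knockout mouse 1 and 5 without knockout mouse 2. Scd1, stearoyl-CoA desaturase, was 3.09 lower. Of 23 immediate early and stress genes, 3 were higher and 8 lower, with 1 and 4 without knockout mouse 1, 1 and 6 without knockout mouse 2, and 5 and 8 without wild-type mouse 2. Of 16 hormone-sensing genes, 9 were lower in myoepithelial cells than in alveolar progenitors and 1 higher, but 4 lower calls were left with either knockout mouse left out. On the same list 13 of 16 genes were lower in both populations than in non-clonogenic luminal cells by at least 1 log2 unit, against 3.40% of all genes.

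The second question was which genes the basal cells and the hormone receptor-negative luminal cells had in common. A gene counted where myoepithelial minus non-clonogenic and alveolar minus non-clonogenic were both called and both at least 1 log2 unit. Both differences use the same non-clonogenic arrays, so the count is a description. Of the 17097 genes, 434 (2.54%) met the rule, while 1199 genes (7.01%) passed on the myoepithelial side and 796 (4.66%) on the alveolar side. The mirror rule, lower in both by 1 log2 unit, was met by 581 genes (3.40%). In the 434 genes the median difference from non-clonogenic luminal cells was 2.11 in myoepithelial cells and 1.83 in alveolar progenitors. Between myoepithelial cells and alveolar progenitors, 168 of them were called higher in myoepithelial cells, 69 lower and 197 neither, and in 216 the 95% interval of this difference lay within 1 log2 unit of 0. Just inside the rule stood Parva, Bcl7c, Snhg16 and Nqo1, whose smaller differences were 1.0002, 1.0004, 1.0033 and 1.0058, and just outside Gm13889, Fbn2, Tmtc2 and Slc3a2, at 0.9989, 0.9968, 0.9966 and 0.9947. With a limit of 2 log2 units 141 genes were left.

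Sox10, Tfap2c and Hey1 were all members. Sox10, a SOX factor of neural crest and mammary progenitors, measured 10.95, 10.71, 10.59 and 10.62 in myoepithelial cells and 10.63, 11.02, 10.86 and 10.90 in alveolar progenitors, against 6.70, 6.50, 6.51 and 6.52 in non-clonogenic luminal cells. Myoepithelial cells and alveolar progenitors overlapped, and their difference of -0.13 had an interval of -0.43 to 0.17 (adjusted p = 0.48), with Sox10 higher in the myoepithelial cells of knockout mouse 1 only. Tfap2c, an AP-2 factor, measured 11.42, 11.53, 11.43 and 11.33 in myoepithelial cells and 10.20, 10.32, 9.91 and 10.09 in alveolar progenitors, against 6.43, 6.62, 7.10 and 6.96 in non-clonogenic luminal cells. It was 1.30 higher in myoepithelial cells than in alveolar progenitors, with no overlap (adjusted p = 1.8e-05). Hey1 measured 9.27, 10.86, 10.57 and 10.97 in myoepithelial cells and 10.93, 11.58, 10.03 and 10.94 in alveolar progenitors, against 7.38, 7.77, 7.17 and 7.35 in non-clonogenic luminal cells. Its difference of -0.45 between the first 2 populations had an interval of -0.88 to -0.03 and did not pass the test after adjustment (adjusted p = 0.091), with -0.21 when knockout mouse 1 was left out and -0.69 when knockout mouse 2 was. Within mice the difference of Hey1 was -1.67 and -0.72 in the knockout mice, against 0.55 and 0.03 in the wild-type mice, and the genotype difference did not pass the test (adjusted p = 0.26). In ductal progenitors, which carry both luminal gate antigens, Sox10, Tfap2c and Hey1 averaged 8.33, 8.09 and 8.54.

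**Figure D4:**
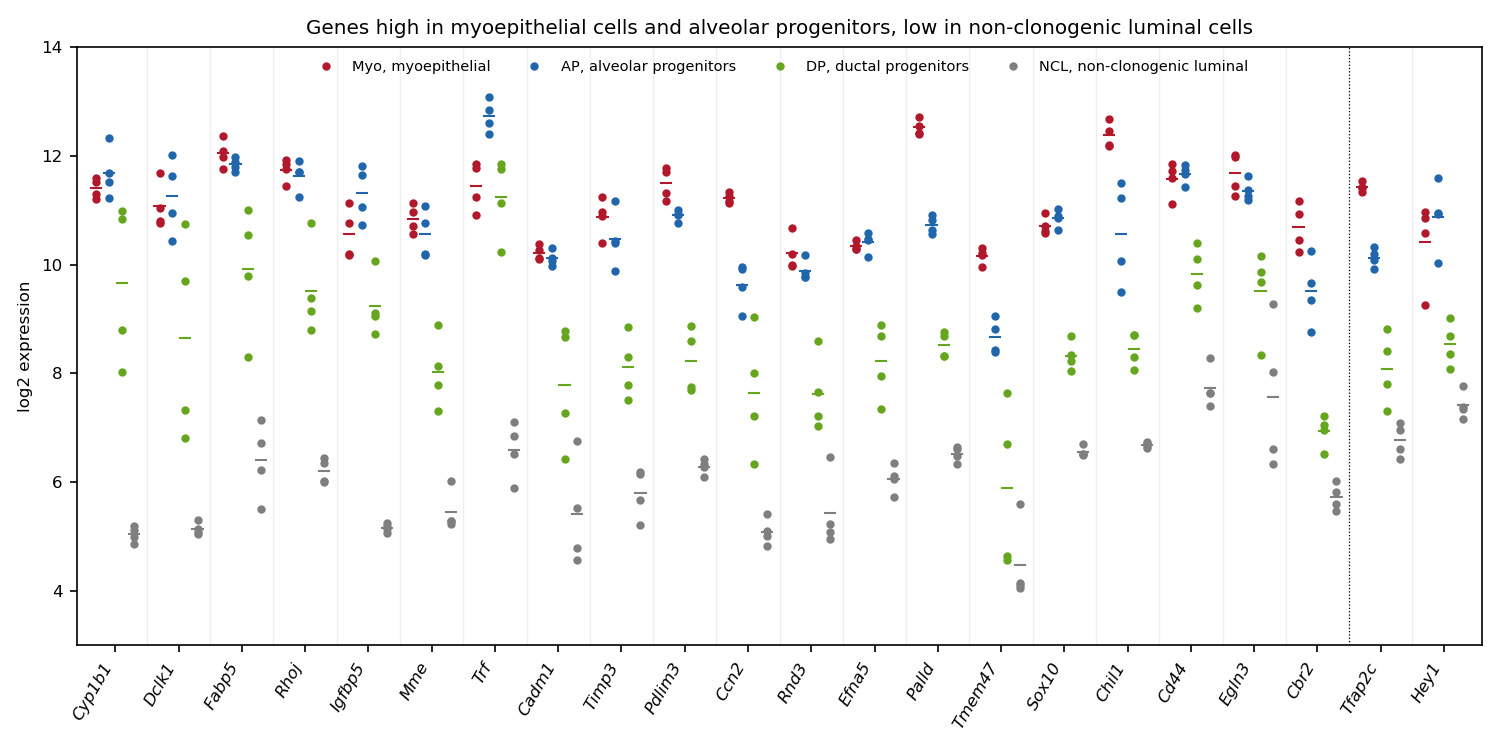
Log2 expression (vertical axis) of the 20 genes with the largest smaller difference from non-clonogenic luminal cells, and right of the dotted line Tfap2c and Hey1, in the 4 populations; points are single mice, bars means. The myoepithelial and alveolar means lie above, the non-clonogenic means at the bottom and the ductal means in between in all 20 genes.

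The 20 genes with the largest smaller difference exceeded non-clonogenic luminal cells by 3.83 to 6.36 log2 units in myoepithelial cells and by 3.77 to 6.65 in alveolar progenitors. Between these populations, 6 of the 20 were called higher in myoepithelial cells, 2 lower and 12 neither. Cyp1b1, a cytochrome P450 that oxidises estradiol and polycyclic hydrocarbons, measured 11.60, 11.21, 11.52 and 11.29 in myoepithelial cells and 11.51, 11.23, 11.68 and 12.34 in alveolar progenitors, against 5.12, 4.86, 5.20 and 4.99 in non-clonogenic luminal cells. Dclk1, a microtubule-associated kinase, measured 11.04, 10.80, 11.69 and 10.76 in myoepithelial cells and 10.95, 10.44, 12.02 and 11.63 in alveolar progenitors, against 5.05, 5.14, 5.31 and 5.09 in non-clonogenic luminal cells. A dimmer probe set of Cyp1b1 was called lower in myoepithelial cells by limma, at -0.82 (adjusted p = 0.0434 over all probe sets). The dimmest differed by -0.54 and did not pass (adjusted p = 0.0524). On the probe sets used, myoepithelial and alveolar arrays of both genes overlapped and the non-clonogenic arrays lay far below. Fabp5, a fatty acid carrier, Rhoj, a small GTPase, and Mme, the peptidase CD10, showed the same order, with differences between myoepithelial cells and alveolar progenitors of 0.20, 0.11 and 0.29 that did not pass the test. Cadm1 and Cd44, both adhesion molecules, and Efna5, an ephrin, were as close, at 0.10, -0.09 and -0.07.

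Others of the 20 leaned to a side. Trf, the iron carrier transferrin, was 1.29 lower and Igfbp5, an insulin-like growth factor carrier, 0.74 lower in myoepithelial cells than in alveolar progenitors, and the call for Igfbp5 was lost with either knockout mouse left out. The difference of Igfbp5 was -1.46 and -1.63 in the knockout mice, against 0.03 and 0.08 in the wild-type mice, though the genotype difference did not pass the test (adjusted p = 0.24). Palld, an actin-bundling protein, was 1.79 higher, Ccn2, a matricellular protein also called connective tissue growth factor, 1.59 higher, and Chil1, a chitinase-like secreted protein, 1.81 higher. Timp3, an inhibitor of metalloproteases, differed by 0.40 and did not pass the test (adjusted p = 0.057, and 0.0354 when only the 8 arrays compared entered the model), and its arrays overlapped. The non-clonogenic arrays of Egln3, an oxygen-sensing hydroxylase, reached from 6.33 to 9.28, so that its distance from them varied between mice.

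Members of the lists met the rule in unequal numbers, against 2.54% of all genes. Of 20 regulators named for basal and receptor-negative luminal cells, 11 met it, which besides Sox10, Tfap2c and Hey1 were Foxc1, Egfr, Nfib, Etv5, Mia, Vim, Cx3cl1 and Met. This list was drawn up with such cells in mind, so its count is no independent evidence. Foxc1, a forkhead factor known from basal-like breast cancer, was high mainly on the alveolar side, at 6.68, 6.74, 7.05 and 6.47 in myoepithelial cells and 9.53, 9.45, 8.93 and 9.02 in alveolar progenitors, against 5.82, 5.24, 5.05 and 5.29 in non-clonogenic luminal cells. Vim, the intermediate filament protein vimentin, was high mainly on the myoepithelial side, at 11.26, 10.79, 11.06 and 11.21 in myoepithelial cells and 6.82, 6.81, 8.08 and 8.15 in alveolar progenitors, against 6.14, 5.90, 6.86 and 6.09 in non-clonogenic luminal cells, so that alveolar and non-clonogenic arrays overlapped. Egfr was 0.65 higher in myoepithelial cells than in alveolar progenitors, though not called without knockout mouse 2, and Met, the receptor for hepatocyte growth factor, 1.58 lower. Of the lists above, 6 of 15 basement membrane genes and 5 of 17 contraction genes also met the rule, among them Col4a1, Lama3, Oxtr and Tpm2. No member of the hormone-sensing list met it, and 1 of 17 claudin and tight junction genes did (Cldn1). Of the immediate early list, 6 of 23 genes met it, among them Egr2, Myc and Nr4a1, which are also raised by tissue dissociation. The part of dissociation was not tested.

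The comparison was also set between the Cpeb2 genotypes. The difference between myoepithelial cells and alveolar progenitors itself differed between knockout and wild-type mice in 30 of 17097 genes (0.175%) by the same limma model, with 10 higher and 20 lower in knockout mice, while 1398 genes (8.18%) had an unadjusted p under 0.05. Across all genes the within-mouse differences of any 2 mice correlated at r = 0.829 to 0.933, as a description over genes of the same arrays. Leaving out knockout mouse 2 gave 4 genes, knockout mouse 1 gave 6, wild-type mouse 2 gave 8 and wild-type mouse 1 gave 131, and it was 3 when only these 8 arrays entered the model. Of the 30 genes, 29 were also called in the comparison over both genotypes, and 4 went opposite ways in the 2 genotypes.

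The 5 genes with the smallest p are given by their values. Maob, monoamine oxidase B, was higher in alveolar progenitors of knockout mice and higher in myoepithelial cells of wild-type mice. It measured 6.65, 5.48, 8.06 and 7.64 in myoepithelial cells, against 7.12, 6.96, 5.68 and 5.39 in alveolar progenitors, a genotype difference of -3.29 (standard error 0.34, adjusted p = 0.0124). Klk11, a kallikrein-related protease, measured 5.79, 5.69, 5.76 and 5.79 in myoepithelial cells, against 9.40, 9.41, 7.63 and 7.61 in alveolar progenitors (-1.82, adjusted p = 0.0124). Its myoepithelial arrays were level across genotypes and its alveolar arrays were higher in knockout mice. Rspo1, a secreted amplifier of Wnt signalling, measured 4.36, 4.43, 4.51 and 4.55 in myoepithelial cells, all under the lower quartile, against 5.07, 5.31, 7.69 and 7.60 in alveolar progenitors (2.32, adjusted p = 0.0134). Here the alveolar arrays were lower in knockout mice. Cnmd, chondromodulin, measured 5.27, 5.35, 5.40 and 5.38 in myoepithelial cells, against 5.64, 5.66, 7.02 and 6.90 in alveolar progenitors (1.23, adjusted p = 0.0124). Atp6v1c2, a subunit of the vacuolar proton pump, measured 4.94, 4.72, 4.89 and 5.30 in myoepithelial cells, against 4.86, 4.73, 6.35 and 6.75 in alveolar progenitors (1.49, adjusted p = 0.0124). In 4 of these 5 genes, all but Maob, the larger gap between genotypes was on the alveolar side. The same held for 19 of the 30 genes, and this share was not computed over all genes. Pigr, the receptor that carries immunoglobulin A across epithelia, was another of the 30 (-1.13, adjusted p = 0.0348).

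**Figure D5:**
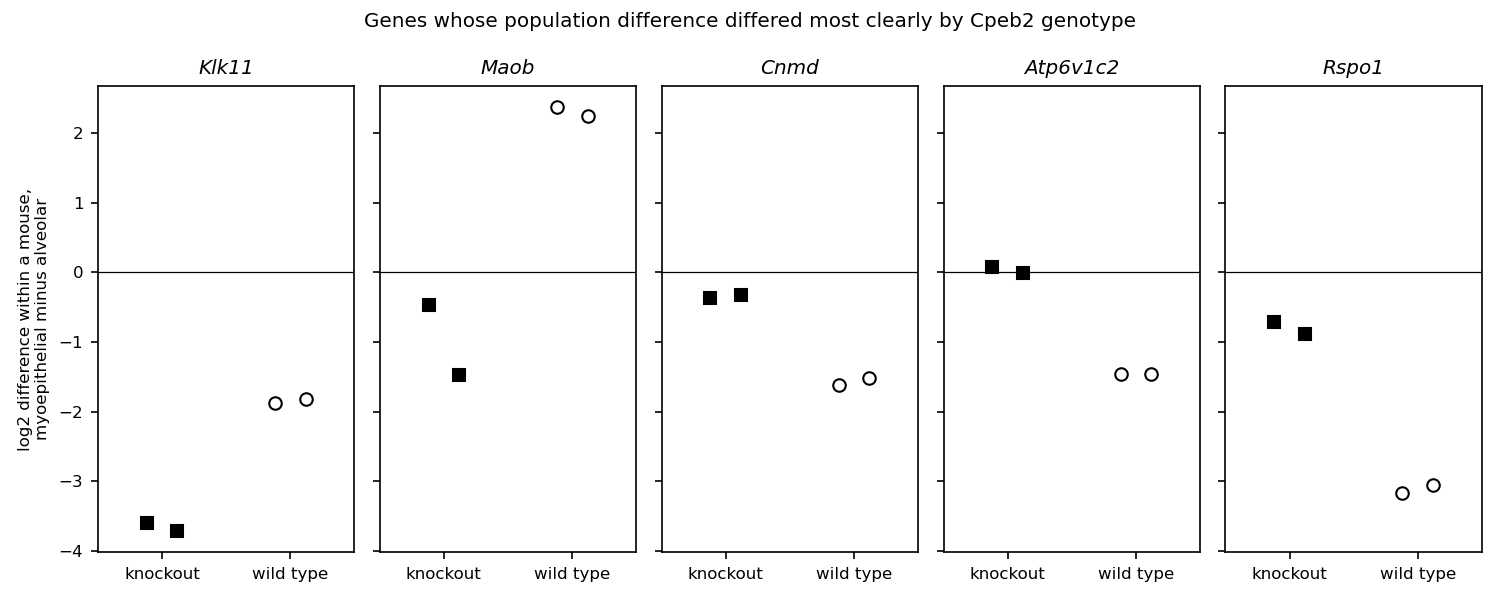
Difference within each mouse between myoepithelial cells and alveolar progenitors (vertical axis, log2) for the 5 genes with the smallest p of the genotype difference; filled squares are knockout mice, open circles wild-type mice. The genes were chosen by this p, so that the 2 mice of a genotype lie close together relative to the gap between genotypes by selection. In Maob the genotypes lie on opposite sides of 0.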

How the data were processed

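The deposited values are log2 expression per probe set, 45141 probe sets on 16 arrays, used as the authors deposited them. RMA and limma are named in the submitters' processing notes, with neither role nor version; background correction, filters and any batch correction are not stated there. The labels' protocols give 15 ng total RNA as the input of a whole transcriptome amplification before biotin labelling.

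Probe sets were named through the platform annotation: 28898 had 1 gene symbol, 551 several and 15692 none, controls included. A gene with several probe sets was represented by the brightest on average (17097 genes, 7180 with more than 1 probe set). Of 2900 such genes called between myoepithelial cells and alveolar progenitors, 28 had a further probe set that was called the other way. The model (limma 3.58.1 in R 4.3.3, eBayes with a trend on mean expression) held 4 populations by 2 genotypes and the mouse as a fixed block over all 16 arrays, with 6 residual degrees of freedom and 4.25 from the prior. The contrast is the mean of the 4 within-mouse differences. P-values were adjusted by Benjamini-Hochberg over all genes and called under 0.05. Arrays of a mouse belong to the same animal by the labels, and deviations from the group means correlated within mice at 0.269 in knockouts and 0.335 in wild type. No column of the value table was without a sample.

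Genes named are the 12 largest rises and the 12 largest falls among called genes that moved the same way in all 4 mice, with arrays that do not overlap and the brighter mean above the lower quartile, the 20 shared genes with the largest smaller difference and no overlap with non-clonogenic arrays, members of 26 gene lists (365 of 402 genes measured), Sox10, Tfap2c, Hey1, Cpeb2, the sort antigens, the 5 smallest p of the genotype difference and genes beside the threshold. Members and lists were chosen with earlier results of these data known. Promoter stretches come from RefSeq (GRCm38.p6). Alternatives are given in the closing section.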

Additional observations from a re-analysis of the deposited data

Results flagged for a closer look

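Among the 165 genes named, 11 had 1 mouse whose difference between myoepithelial cells and alveolar progenitors stood apart from the other 3 (a gap above 0.829 of the whole range of 4). Chance flags about 1 in 20 groups of this size. Wild-type mouse 2 stood apart in 6 genes. Its differences were 0.50 for Cpeb2 (others -0.20 to -0.10), 3.96 for Dcn (others 2.31 to 2.59) and 2.93 for Dkk3 (others 3.54 to 3.66). They were -2.01 for Rab25, -5.49 for Smim22 and -3.89 for Wfdc18, each smaller in size than in the other mice. Knockout mouse 1 stood apart for Axin2 at -0.0497, for Sox10 at 0.33 and for Timp3 at 0.0614. In Sox10 the other 3 mice lay between -0.31 and -0.27, so that this mouse alone had the higher level in myoepithelial cells. Knockout mouse 2 stood apart for Sox9 at -1.72, and wild-type mouse 1 for Tfap2c at 1.52.

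The difference between populations itself differed between the Cpeb2 genotypes, by limma's test of the interaction, in 7 of the named genes. The knockout minus wild-type values were -3.29 for Maob, -1.82 for Klk11, -1.39 for Nqo1 and -1.13 for Pigr. They were 2.32 for Rspo1, 1.49 for Atp6v1c2 and 1.23 for Cnmd. Nqo1, a quinone reductase, was named only for its place beside the threshold of the shared genes, and its adjusted p was 0.0365.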

How the results depend on the processing

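The count of 6196 genes called between myoepithelial cells and alveolar progenitors lay between 5802 and 6524 under the other normalizations, filters, probe-set rules and models over all 4 mice. Without the pairing by mouse (no replicate block) it was 6054, the shared count 433 and the genotype count 24, so the block moved no count by more than 1.5 times. With 1 mouse left out it was 3230 to 6192. With mice of 1 genotype only, where fewer arrays entered, it was 2638 in wild-type mice and 5051 in knockout mice. In the main model 1891 were called and at least 1 log2 unit. The 434 shared genes became 379 to 435 under those settings and 418 to 453 with 1 mouse left out, but 141 at a minimum of 2 log2 units and 1297 with no minimum. The 30 genotype calls were the least stable of the 3 counts, at 3 with only the arrays compared, 13 without the trend in eBayes and 4 to 131 with 1 mouse left out; the cause was not tested. Over 2304 recomputed values of the 165 named genes, 2231 kept direction and side of the threshold, 27 lost a call, 20 gained one, 26 uncalled values moved and 0 called values reversed. Signal over background limits genes under the lower quartile on a side, whose differences are lower bounds.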
